A study of Mus musculus with 35 samples.

Results

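The genes that encode the proteasome, its activators, its inhibitor and its assembly chaperones were followed in mouse male germ cells with and without Smg6, which encodes an endonuclease of nonsense-mediated mRNA decay. They were taken by symbol (Psma, Psmb, Psmc, Psmd, Psme, Psmf or Psmg followed by a number) with a minimum of 10 counts in at least 3 libraries of spermatocytes, round spermatids or chromatoid bodies. Of 50 gene rows with such a symbol, 49 reached this minimum, out of 18108 of the 24411 gene rows. They comprised 8 α and 7 β subunits of the 20S core, 3 immune β subunits, 6 ATPases and 11 other subunits of the 19S regulatory particle, 3 chaperones of the 19S base, 5 activators and inhibitors, 4 chaperones of the 20S core, and 2 rows that the symbol alone brought in. The 2 last rows were Psmc3ip, which encodes a meiotic recombination factor and no proteasome subunit, and Psme2b, a paralogue of Psme2. Psmb11, the thymus-specific β subunit, stayed below the minimum with 0 to 7 counts per library, whereas Psme2b passed narrowly, through round spermatid counts of 33, 2 and 0 in control and 11, 6 and 27 in Smg6-cKO libraries.

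The mice were adults of a mixed C57Bl/6J and SV129 background. Smg6-cKO animals were Smg6(fx/fx);Ngn3Cre+, in which Cre driven by the Ngn3 promoter deletes a floxed Smg6 exon from early postnatal germ cells onwards. The controls (CTRL) were littermates, either Smg6(fx/fx);Ngn3Cre– or Smg6(fx/wt);Ngn3Cre–, so all carried a floxed allele and none carried Cre, and the effects of Cre and of the deletion cannot be told apart. Pachytene spermatocytes (Spc) and round spermatids (RS) were enriched on BSA gradients by velocity sedimentation, with 3 CTRL and 3 cKO libraries of poly(A) RNA for each. Chromatoid bodies (CB), the RNA-rich germ granules of round spermatids, were immunoprecipitated with anti-DDX4, and total RNA was sequenced from 4 CTRL and 3 cKO preparations, each a pool of several mice.

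The proteasome degrades proteins that carry ubiquitin chains. Its 20S core is a barrel of α rings, which gate the entry, and β rings, which hold the proteolytic sites, and the 19S particle recognises, unfolds and feeds in the substrates. Male germ cells are known for variants of this machine: PSMA8 takes the place of the α4 subunit PSMA7 in meiotic and later germ cells, and the activator PA200, encoded by Psme4, is linked to histone loss in spermatids. The immune subunits PSMB8, PSMB9 and PSMB10 replace the constitutive PSMB5, PSMB6 and PSMB7 in immune cells and in cells exposed to interferon.

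Spermatocyte and round spermatid libraries held 38129415 to 49940226 counts over genes and repeat elements, and chromatoid body libraries 3965541 to 16699210, so small differences were less detectable in chromatoid bodies. The 49 genes took 0.604% to 0.616% of gene counts in CTRL Spc, 0.544% to 0.582% in cKO Spc, 0.557% to 0.577% in CTRL RS and 0.516% to 0.536% in cKO RS. The share was 0.137% to 0.207% in CTRL CB and 0.108% to 0.153% in cKO CB. Counts over the whole Smg6 gene did not pass the edgeR test in Spc (adjusted p = 0.361), RS (adjusted p = 0.968) or CB (adjusted p = 0.907), but these counts cover all exons and so do not check the deletion of 1. The paper reports loss of the floxed exon from Smg6 mRNA by exon usage in its spermatocyte data. Marker genes of other cells moved with genotype. The summed level of 9 late spermatid markers, protamines and transition proteins among them, was 1278269.6 to 1696484 normalised counts in CTRL RS and 84519.9 to 87067 in cKO RS. It was 157169.6 to 322778 in CTRL Spc and 18421 to 60839 in cKO Spc, with all 9 lower in the mutant in Spc, RS and CB. In cKO RS 5 of 8 spermatocyte markers rose and 1 fell, all 5 tested Leydig cell markers, 6 of 6 Sertoli cell markers and 4 of 5 erythroid markers rose, and in cKO Spc 5 of 6 Sertoli cell markers fell. In bulk libraries fewer cells of a type cannot be told apart from less RNA per cell. Throughout, a gene rose or fell where its adjusted p in the edgeR quasi-likelihood test, corrected by Benjamini-Hochberg over all genes tested, was at most 0.05.

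The members with the lowest log2 changes in mutant round spermatids were Psma6, the α1 subunit of the core, and Psmf1, which encodes the proteasome inhibitor PI31. Both fell in all 3 sources of RNA, but in Spc neither call held without CTRL replicate 3 or without cKO replicate 3, as given below. Psma6 lies on chromosome 12 (12:55384222-55418454, plus strand, GRCm38) and Psmf1 on chromosome 2 (2:151715812-151744186, minus strand). Because these unlinked genes moved together, the 250 bases upstream of a RefSeq start site of each are shown, with a CCAAT box or its reverse complement in capitals, beside the same window of Psmb6, a constitutive β subunit whose changes were smaller, in which the capitals mark a match to TGACNNNGC, the antioxidant-response type of element that NFE2L1, the regulator of proteasome genes, is known to bind. The windows are chr12:55383972-55384221 (plus strand), chr2:151741311-151741560 (minus strand) and chr11:70525107-70525356 (plus strand), in GRCm38.p6. The RefSeq start of Psmf1 lies within the gene coordinates given above, downstream of their first base, as does a further RefSeq start of Psma6. The window of the latter (chr12:55398575-55398774, after leaving out 50 bases that lie in an exon) held none of the motifs and is not printed.
Psma6: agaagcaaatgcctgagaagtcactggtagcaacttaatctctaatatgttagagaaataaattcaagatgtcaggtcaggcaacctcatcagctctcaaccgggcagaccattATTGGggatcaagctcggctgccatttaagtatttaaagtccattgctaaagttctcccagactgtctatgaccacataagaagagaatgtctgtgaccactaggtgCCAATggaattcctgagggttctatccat
Psmf1: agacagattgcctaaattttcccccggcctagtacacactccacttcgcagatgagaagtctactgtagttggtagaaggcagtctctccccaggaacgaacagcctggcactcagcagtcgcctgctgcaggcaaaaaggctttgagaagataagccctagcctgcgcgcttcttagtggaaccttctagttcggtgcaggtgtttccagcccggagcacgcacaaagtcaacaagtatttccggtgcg
Psmb6: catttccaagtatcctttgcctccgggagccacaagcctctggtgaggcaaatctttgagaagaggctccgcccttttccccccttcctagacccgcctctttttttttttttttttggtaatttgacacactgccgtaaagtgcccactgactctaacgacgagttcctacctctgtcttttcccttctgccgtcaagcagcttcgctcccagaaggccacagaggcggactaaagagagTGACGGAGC

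Neither motif, on either strand, was in the Psmf1 window. RefSeq gave such windows for 41 of the 49 genes. TGACNNNGC was in those of 5 genes (Psmb5, Psmb6, Psmc6, Psmd12 and Psmd9), which is 11.4% of 44 windows and compares with 10.2% of 32817 windows of all genes. CCAAT was in those of 14 genes, 31.8% of windows against 33.8% for all genes, and the palindrome TGACGTCA was in none, against 1.55%. Matches to different motifs overlapped in 48 of the windows of all genes. A match is a description of these letters only.

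Psma6 was at 10662, 6643 and 7571 normalised counts in CTRL Spc and rose to 32220, 27026 and 34173 in CTRL RS. In cKO Spc the values were 5681, 5634 and 4110, and in cKO RS 6223, 6754 and 6265. All 3 mutant round spermatid libraries lay below every control round spermatid library. The change in RS was -2.27 ± 0.10 (log2, SE, edgeR adjusted p = 5.7e-07), a 4.81-fold lower level, and in Spc -0.80 ± 0.21 (edgeR adjusted p = 0.0287). In chromatoid bodies, scaled apart from the cells, Psma6 was at 352.8, 346.6, 426.6 and 526.5 in CTRL and 111.1, 61.6 and 103.5 in cKO, again with no overlap (-2.13 ± 0.24, edgeR adjusted p = 6.49e-05).

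Psmf1 followed the same course. Its normalised counts were 9644, 6344 and 6467 in CTRL Spc, 5311, 5329 and 4052 in cKO Spc, 28506, 27202 and 33188 in CTRL RS, and 5942, 6221 and 6154 in cKO RS. In RS it fell by 2.27 ± 0.085 on the log2 scale (edgeR adjusted p = 3.91e-07), 4.81-fold. The fall in Spc was smaller (-0.72 ± 0.19, edgeR adjusted p = 0.0327). In CB its values of 371.7, 287.2, 336.3 and 504.4 in CTRL and 121.2, 85.0 and 166.0 in cKO did not overlap (-1.56 ± 0.25, edgeR adjusted p = 0.000539). CTRL Spc replicate 1, the highest control spermatocyte library for both genes, also had the highest late spermatid marker sum of the spermatocyte libraries. The late spermatid markers fell along with Psma6 and Psmf1 in every comparison. Of 6 other spermatid markers, 6 fell in RS, 5 in CB and 1 in Spc, and none rose. The sum of these 6 was 143607 to 153578 in CTRL RS and 39988 to 47032 in cKO RS. The part of either marker list in the result was not tested. In CB the late spermatid markers summed to 15177 to 32070.1 in CTRL and 3175 to 3642.5 in cKO.

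**Figure D1:**
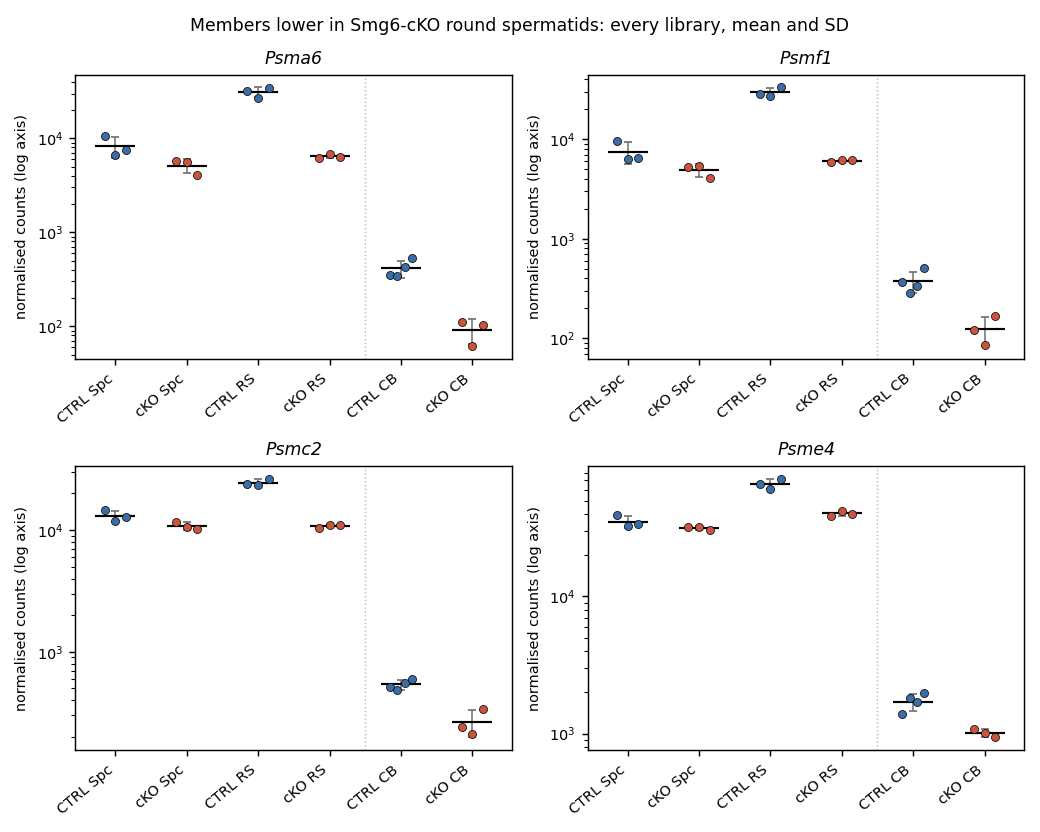
Normalised counts (y axis, log scale) of Psma6, Psmf1, Psmc2 and Psme4 in each library of CTRL (blue) and Smg6-cKO (red) Spc, RS and CB, with the group mean as a bar and the SD as whiskers. The 3 cKO RS points of Psma6 lie between 6223 and 6754 and those of CTRL RS between 27026 and 34173; the dotted line separates CB, which were scaled on their own.

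Among the other members that fell in cKO RS, Psmc2, an ATPase of the 19S base, was at 23943, 23377 and 26437 in CTRL and 10483, 11007 and 11075 in cKO (-1.17 ± 0.067, edgeR adjusted p = 2.4e-06). It fell as well in CB (-1.01 ± 0.19, edgeR adjusted p = 0.00135). Psme4 was at 66263, 60833 and 72041 in CTRL RS and 38815, 41743 and 40150 in cKO RS, and every mutant library was lower. Its fall was -0.71 ± 0.074 in RS (edgeR adjusted p = 6.33e-05) and -0.76 ± 0.17 in CB (edgeR adjusted p = 0.00444). Psmg2, a chaperone that with PSMG1 starts the α ring, was at 1539, 1399 and 1788 in CTRL RS and 744, 745.5 and 680.1 in cKO RS (-1.11 ± 0.12, edgeR adjusted p = 6.96e-05), and fell in CB too (-0.92 ± 0.23, edgeR adjusted p = 0.00852). Psme3, which encodes the nuclear activator PA28γ, was at 5501, 4501 and 6304 in CTRL RS and 2848, 2294 and 2569 in cKO RS (-1.07 ± 0.13, edgeR adjusted p = 0.000185). Its fall in CB was -0.57 ± 0.17 (edgeR adjusted p = 0.0175), which no longer passed without cKO CB library 4 (-0.50, edgeR adjusted p = 0.0569).

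In round spermatids as a whole, 14 of the 49 members rose and 22 fell, where 38.4% of all 17492 genes tested rose and 34.3% fell. When the log2 change also had to reach 1.5 in either direction, 6 members passed, 12.2% of them against 26.4% of all genes, and 2 of the 6, Psmb8 and Psmb9, reached the count minimum through cKO libraries alone. Both are also among the 14 that rose, and nothing is read from their direction. The members' median change was -0.23 and that of all genes 0.11 (log2). This split depended on the scaling. With library size in place of the TMM factors 29 members rose and 6 fell, because the median of all genes moved to 0.73, while the members lay 0.34 below the median of all genes under both scalings. Of all genes, 58.5% then rose and 18.5% fell. The distance between the medians was 0.11 with transcript counts summed per gene, 0.22 with the replicate block and 0.46 with no count filter. The direction of genes with small changes is therefore given relative to a scaling, and Psma6, Psmf1 and Psmc2 fell under either. Psme4 did not pass with library size only (-0.09, edgeR adjusted p = 0.133).

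By role, in the 19S particle 4 of 6 ATPases fell in RS and none rose (Psmc2, Psmc3, Psmc5 and Psmc6), and of 11 non-ATPase subunits 6 fell and 4 rose, against 34.3% of all genes that fell. Under library size scaling 1 ATPase (Psmc2) and 1 non-ATPase (Psmd12) fell and 2 and 7 rose. Psmc3, the ATPase with the highest level per kilobase and named after its values were seen, was at 43674, 42463 and 43785 in CTRL RS and 25602, 27580 and 27839 in cKO RS (-0.67 ± 0.058, edgeR adjusted p = 2.31e-05). Psmd12, a lid subunit, was at 4663, 4467 and 4457 in CTRL RS against 2307, 2545 and 2532 (-0.87 ± 0.072, edgeR adjusted p = 1.92e-05). In the opposite direction, the lid subunit Psmd7 was at 2558, 2849 and 2705 in CTRL RS and 4787, 4810 and 5121 in cKO RS (0.87 ± 0.074, edgeR adjusted p = 2.04e-05). Psmd3, also of the lid, rose by 0.67 ± 0.068 (edgeR adjusted p = 5.93e-05), from 2769, 2925 and 2928 to 4566, 4353 and 4639. Subunits of 1 particle thus moved in both directions. Psmd14, the deubiquitinase of the lid, rose by 0.30 (edgeR adjusted p = 0.0414), which did not hold without CTRL replicate 1, 2 or 3 or cKO replicate 1 (edgeR adjusted p = 0.0564 to 0.119) or with DESeq2 (adjusted p = 0.0898).

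Of the 8 α subunits, 4 fell (Psma3, Psma4, Psma5 and Psma6) and 2 rose (Psma2 and Psma7). Of the 7 constitutive β subunits, 3 fell (Psmb4, Psmb6 and Psmb7) and 1 rose (Psmb1), where 34.3% of all genes fell and 38.4% rose. Apart from Psma6 and Psma7 these changes lay between -0.57 and 0.60 on the log2 scale. Psmb6 fell by 0.57 ± 0.061 (edgeR adjusted p = 7.96e-05) and Psmb7 by 0.53 ± 0.066 (edgeR adjusted p = 0.000188), while Psmb5 did not pass (-0.10, edgeR adjusted p = 0.288). With library size only, 6 α and 4 β subunits rose and Psma6 alone of these 15 fell (58.5% of all genes rose and 18.5% fell), and Psmb5, Psmb6 and Psmb7 all turned positive, at 0.51, 0.05 and 0.09. Among chaperones, Psmd5, which holds ATPases of the 19S base during assembly, rose in RS from 480.7, 431.8 and 435.2 to 831.2, 831.4 and 810.7 (0.89 ± 0.11, edgeR adjusted p = 0.000183). Psmg3, a chaperone of the α ring, was low in every RS library, at 29.6, 25.0 and 24.1 in CTRL and 63.6, 66.1 and 61.1 in cKO, and rose by 1.28 ± 0.26 (edgeR adjusted p = 0.00254). Psmc3ip, the recombination factor, fell by 0.68 ± 0.071 (edgeR adjusted p = 6.6e-05), but with library size only it was at -0.06 and did not pass.

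**Figure D2:**
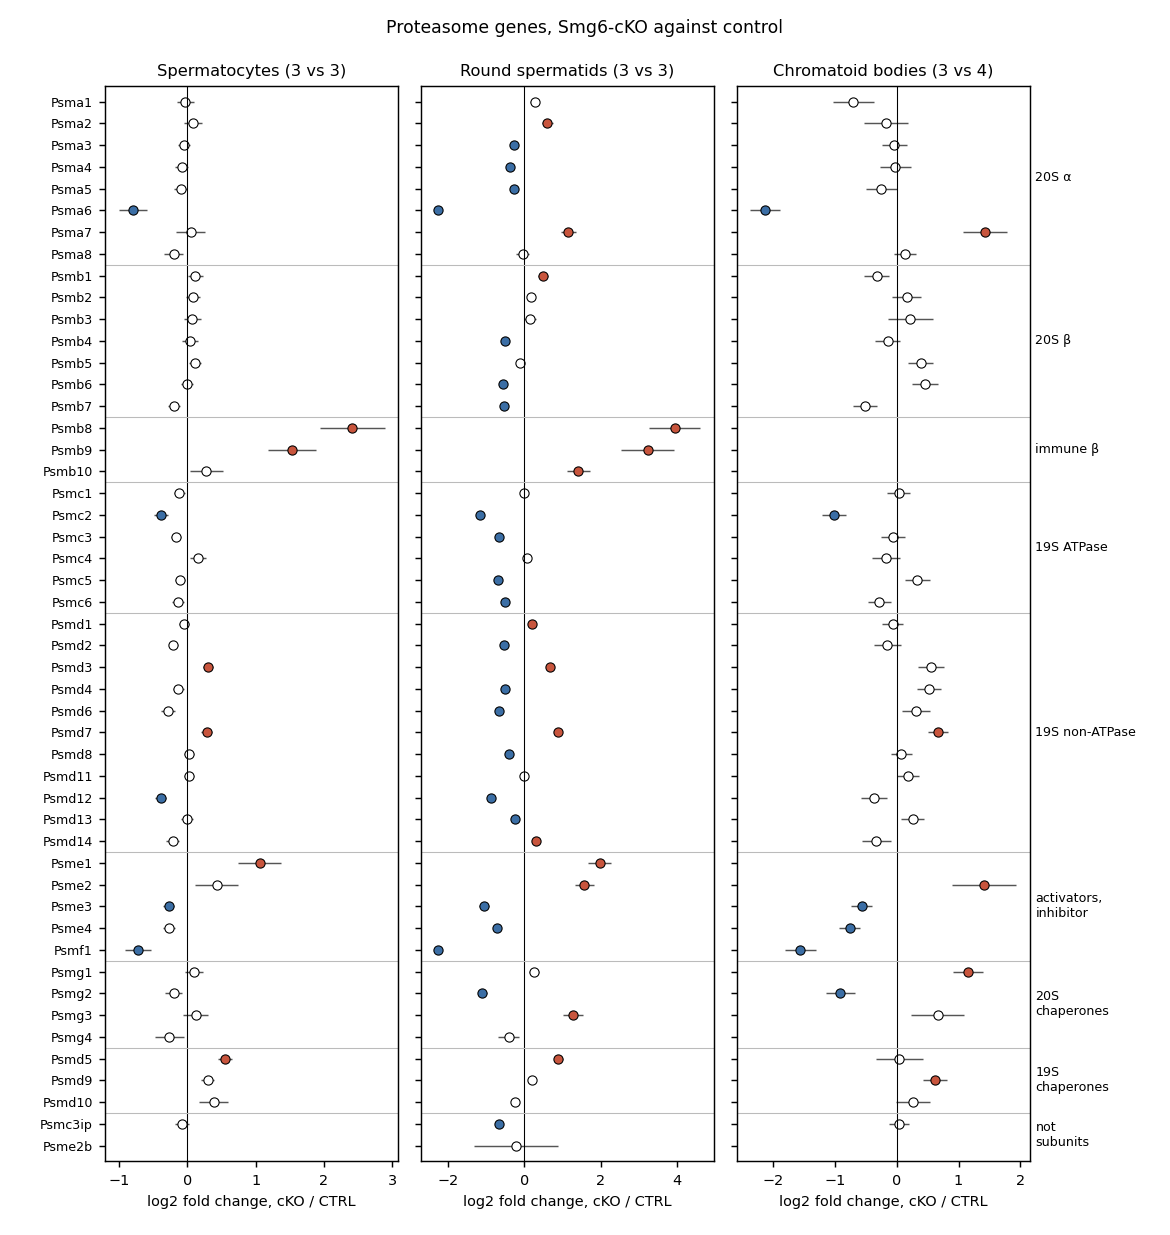
Log2 fold change of Smg6-cKO against CTRL (x axis) for every tested member, by role, in Spc, RS and CB; red circles rose, blue circles fell, open circles did not pass the edgeR test, and whiskers are the SE. Psma6 and Psmf1 are the lowest points in all 3 panels (-2.27 for both in RS), and Psmb8, Psmb9 and Psme1 are the highest points in Spc and RS, where Psmb10 is at 0.28 (not passed) and 1.41.

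In chromatoid bodies 43 members were tested and 5 rose and 6 fell, where 18.1% of 14051 genes rose and 18.4% fell. The fold threshold was passed by 2 members, Psma6 and Psmf1, which is 4.65% of them against 11.3% of all genes. The 6 that fell were Psma6, Psmf1, Psmc2, Psmg2, Psme4 and Psme3, all of which also fell in RS. Of the members tested in both, 9 passed in both RS and CB and all 9 had the same direction, and over all genes 4296 of 4453 did. RS and CB preparations are separate libraries, but late spermatid markers were lower in cKO in both. Psmd7 rose in CB from 237.0, 207.2, 230.0 and 202.6 to 336.8, 328.3 and 380.9 (0.67 ± 0.16, edgeR adjusted p = 0.00593), with no overlap. Psmd9, a chaperone of the 19S base, rose by 0.62 ± 0.20 (edgeR adjusted p = 0.0254), from 156.7, 117.7, 119.4 and 109.8 to 165.0, 208.1 and 206.9. Psmd9 no longer passed without CTRL CB library 2, 3 or 5 or cKO CB library 3 or 4 (edgeR adjusted p = 0.0527 to 0.0749). Psmg1, the partner of PSMG2, rose from 55.9, 44.3, 64.1 and 46.6 to 92.6, 155.4 and 106.9 (1.15 ± 0.24, edgeR adjusted p = 0.00277) and was named after its values were seen. Without the 2 CTRL CB libraries whose column names carry another prefix, a choice made after seeing the data, Psma7, Psmd7, Psmd9, Psmg2 and Psme3 no longer passed (edgeR adjusted p = 0.0562 to 0.169), and with library size only Psmd7 (edgeR adjusted p = 0.155), Psmd9 (edgeR adjusted p = 0.26) and Psme3 (edgeR adjusted p = 0.0596) did not either. The number that rose was 3 without CTRL CB library 5 or cKO CB library 3, and 2 without cKO CB library 4, where 13.6%, 12.7% and 13.8% of all genes rose. The immune subunits, Psme1, Psme2b and Psmg4 had too few counts in CB to be tested, and 0 to 10 counts per library for Psmb8, Psmb9 and Psmb10.

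In spermatocytes, of 48 members tested, 6 rose and 5 fell, where 14.0% of 17321 genes rose and 14.1% fell, and 2 passed the fold threshold as well (4.17% against 8.52%). Those 2, Psmb8 and Psmb9, reached the count minimum through cKO libraries alone, so nothing is read from their share or from their place among the 6 that rose. The members' median change was -0.02 and that of all genes -0.01 (log2). Psma6, Psmf1, Psmd12, Psmc2 and Psme3 fell, and Psmb8, Psmb9, Psme1, Psmd5, Psmd3 and Psmd7 rose. Psmd5 rose by 0.55 ± 0.10 (edgeR adjusted p = 0.0113), from 674, 693.9 and 690.7 to 1126, 1031 and 1101. Psmd12 fell by 0.39 ± 0.087 (edgeR adjusted p = 0.0185) and Psmd3 rose by 0.30 ± 0.077 (edgeR adjusted p = 0.0294). The calls depended on which libraries were used, for the members as for all genes. Without CTRL replicate 3, 1 member rose and 0 fell, and Psma6 (-0.87, edgeR adjusted p = 0.0607) and Psmf1 (-0.83, edgeR adjusted p = 0.0536) no longer passed. Without cKO replicate 1 the counts were 1 and 1, without cKO replicate 2 they were 3 and 2, and without cKO replicate 3 they were 1 and 0. Of all genes, 6.49% rose and 5.53% fell without CTRL replicate 3, 7.53% and 4.40% without cKO replicate 1, 11.6% and 12.6% without cKO replicate 2, and 8.46% and 7.43% without cKO replicate 3. At an unadjusted edgeR p under 0.05, 6 rose and 7 fell without CTRL replicate 3 and 5 rose and 4 fell without cKO replicate 3, and DESeq2 on all 6 libraries called 7 and 5 by its adjusted p. The fold changes of Psma6 stayed between -0.95 and -0.55 in these repeats.

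The step from spermatocytes to round spermatids was compared within each genotype in a joint fit of the 12 libraries. In CTRL, 14 members rose and 21 fell from Spc to RS, where 38.0% of 18171 genes rose and 34.7% fell, and 5 passed the fold threshold as well (10.2% against 33.3%). The median of members was -0.19 and of all genes 0.05 (log2). With library size only, 5 rose and 39 fell (23.7% and 51.8% of all genes), the median of all genes moved to -0.54, and members lay 0.24 below it under both scalings. In cKO, 3 members rose and 33 fell, where 22.8% of genes rose and 26.6% fell, and 3 passed the fold threshold (6.12% against 7.36%). Their median was -0.38 against 0.05 for all genes. With library size only the cKO counts were 7 and 24 (28.7% and 21.8% of all genes). The share of members that fell was 42.9% in CTRL and 67.3% in cKO (34.7% and 26.6% of all genes). Under library size scaling it was 79.6% in CTRL and 49.0% in cKO (51.8% and 21.8% of all genes), so the order of the genotypes turned with the scaling, while in each genotype the members' share was above that of all genes under both.

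In the core, all 7 constitutive β subunits and 6 of 8 α subunits fell from Spc to RS in cKO, against 5 and 4 in CTRL, where 26.6% of all genes fell in cKO and 34.7% in CTRL. In the 19S particle, 5 of 6 ATPases and 8 of 11 non-ATPases fell in cKO and none rose, whereas in CTRL 3 ATPases rose and 2 fell and 3 non-ATPases rose and 4 fell. All 4 core chaperones fell in cKO and 2 in CTRL. These differences between the genotypes turned with library size only for most roles: 5 β and 5 α subunits, 4 ATPases and 5 non-ATPases then fell in cKO, against 7, 7, 5 and 11 in CTRL, and 3 core chaperones fell in each (21.8% of all genes in cKO and 51.8% in CTRL). Whether genotype changed the step was tested as an interaction, which equals the genotype effect in RS minus that in Spc. It was negative for 23 members and positive for 5, where 24.1% of all genes were negative and 19% positive. This count depended on the scaling, since with library size only 27 members were positive and 2 negative (44.5% and 3.00% of all genes) and the median of all genes moved from -0.13 to 0.58. The number of positive interactions was also 2 or 3 without CTRL Spc replicate 2 or 3, cKO Spc replicate 2, any of the CTRL RS replicates, or cKO RS replicate 1 or 3. In those fits the interaction was positive for 14.5% to 18.1% of all genes.

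The genes with the largest rise in CTRL from Spc to RS were Psmf1, Psma6 and Psmd10. Psmf1 rose by 1.99 ± 0.16 in CTRL (edgeR adjusted p = 1.7e-06) and was at 0.32 ± 0.16 in cKO (edgeR adjusted p = 0.115). Psma6 rose by 1.91 ± 0.18 in CTRL (edgeR adjusted p = 3.24e-06) and was at 0.32 ± 0.17 in cKO (edgeR adjusted p = 0.14). The interactions were -1.67 ± 0.23 for Psmf1 (edgeR adjusted p = 0.000506) and -1.59 ± 0.24 for Psma6 (edgeR adjusted p = 0.000854), and both stayed negative with library size only. Psmd10, which encodes gankyrin, a chaperone of the 19S base, rose in both genotypes. Its normalised counts were 396.2, 245.0 and 289.3 in CTRL Spc, 1027, 1040 and 1110 in CTRL RS, 466.1, 395.2 and 454.2 in cKO Spc and 876.6, 818.2 and 950.6 in cKO RS. The rise was 1.77 ± 0.16 in CTRL (edgeR adjusted p = 3.24e-06) and 1.01 ± 0.16 in cKO (edgeR adjusted p = 0.000442). Psmc2 and Psme4 rose in CTRL as well, by 0.91 and 0.92, and in cKO Psmc2 was at 0.01 (edgeR adjusted p = 0.942) and Psme4 rose by 0.35 (edgeR adjusted p = 0.00432).

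The members that fell the most from Spc to RS were Psmg3, Psma8 and Psmd14, in both genotypes. Psmg3 was at 161.5, 174.3 and 178.2 in CTRL Spc, so that its RS values above were 6.50-fold lower (-2.70 ± 0.20, edgeR adjusted p = 8.67e-07). In cKO it fell by 1.66 ± 0.18 (edgeR adjusted p = 3.8e-05), and the interaction was 1.04 ± 0.26 (edgeR adjusted p = 0.00886). Psmd14 was at 1663, 1806 and 1860 in CTRL Spc, 669.6, 634.4 and 681.9 in CTRL RS, 1831, 1565 and 1553 in cKO Spc and 853.9, 730.5 and 841.2 in cKO RS. It fell by 1.42 ± 0.10 in CTRL (edgeR adjusted p = 8.22e-07) and by 1.03 ± 0.10 in cKO (edgeR adjusted p = 2.04e-05). The lid subunits PSMD14 and PSMD7 form a pair in the particle, and Psmd7 fell in CTRL by 0.39 ± 0.075 (edgeR adjusted p = 0.000589) but was at 0.08 in cKO (edgeR adjusted p = 0.393). Its interaction was 0.47 ± 0.11 (edgeR adjusted p = 0.00519). Of the 49 members, 24 passed in both genotypes and 17 of these had the same direction, against 6541 of 7165 over all genes. The other 7 (Psmb6, Psmc3, Psmc5, Psmd8, Psmd12, Psme3 and Psmg2) rose in CTRL and fell in cKO, but this depended on the scaling: with library size only 27 of 28 had the same direction, and Psmd11 alone did not.

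**Figure D3:**
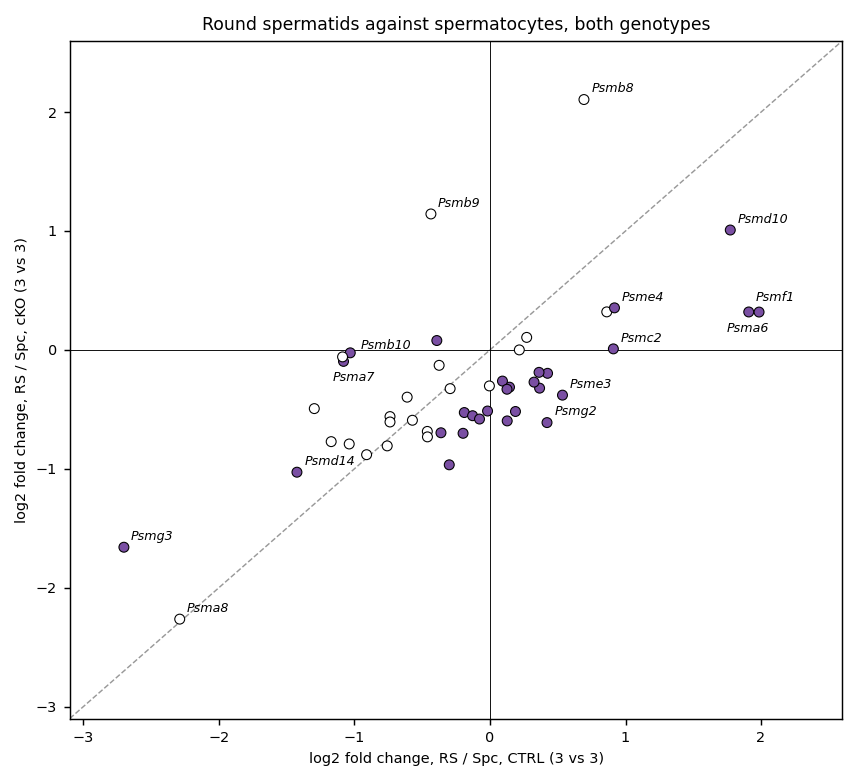
Log2 fold change from Spc to RS for each of the 49 members in CTRL (x axis) and in Smg6-cKO (y axis), 3 against 3 libraries each; filled circles passed the edgeR interaction test and the dashed line marks equal change. Psmf1 and Psma6 lie at 1.99 and 1.91 in CTRL and at 0.32 in cKO, far below the line, whereas Psma8 lies on it (-2.29 and -2.26).

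Psma8 and Psma7 encode alternative α4 subunits, the germ cell form and the general form. Psma8 was at 6834, 7897 and 8427 normalised counts in CTRL Spc and 8922, 6689 and 6177 in cKO Spc, and at 1563, 1638 and 1538 in CTRL RS and 1797, 1141 and 1597 in cKO RS. The genotypes overlapped in both cell types (Spc -0.20 ± 0.14, edgeR adjusted p = 0.303; RS -0.05 ± 0.16, edgeR adjusted p = 0.786). From Spc to RS it fell 4.89-fold in CTRL (-2.29 ± 0.18, edgeR adjusted p = 1.19e-06) and 4.80-fold in cKO (-2.26 ± 0.18, edgeR adjusted p = 6.23e-06), and the interaction was 0.02 ± 0.24 (edgeR adjusted p = 0.941). With library size only, Psma8 was 0.57 higher in cKO RS, and its interaction was 0.75 (edgeR adjusted p = 0.0231). In CB it was at 419.8, 393.7, 390.2 and 439.3 in CTRL and 560.8, 369.4 and 416.1 in cKO (0.13 ± 0.17, edgeR adjusted p = 0.584).

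Psma7 behaved otherwise. It was at 353.1, 531.7 and 584.9 in CTRL Spc and 555.5, 480.3 and 598.2 in cKO Spc, with overlap (0.05 ± 0.21, edgeR adjusted p = 0.883). In RS it was at 230.1, 267.9 and 197.1 in CTRL and 581.4, 395.4 and 551.2 in cKO, so all mutant libraries were above all controls (1.15 ± 0.20, edgeR adjusted p = 0.0011), 2.22-fold. It fell from Spc to RS in CTRL (-1.08 ± 0.22, edgeR adjusted p = 0.000833) and was at -0.10 ± 0.21 in cKO (edgeR adjusted p = 0.722). The interaction of 0.98 ± 0.30 passed (edgeR adjusted p = 0.0226), but not without CTRL Spc replicate 2 or 3, cKO Spc replicate 2, CTRL RS replicate 3 or cKO RS replicate 1 (edgeR adjusted p = 0.0524 to 0.0609). In CB it rose from 15.8, 10.4, 16.0 and 14.8 to 23.6, 41.0 and 50.0 (1.43 ± 0.36, edgeR adjusted p = 0.00772), on 11 to 44 counts per library, and not without cKO CB library 4 (1.14, edgeR adjusted p = 0.0637). Macrophage markers summed to 109.5, 565.8 and 584.4 in these 3 cKO CB libraries and 89.5 to 138.3 in CTRL CB (3 of 5 tested rose), and Leydig cell markers to 277.9, 1677 and 2634 against 95.1 to 365.4 (5 of 5 tested rose), none of the markers being at 0. Both sums had the same order over the cKO libraries as Psma7. The macrophage markers rose in cKO RS as well, and the part of these markers in the rise of Psma7, which most cells use, was not tested.

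Per length of the transcript with the most counts, Psma8 exceeded Psma7 in every library. The log2 ratio of Psma8 to Psma7 was 3.85 ± 0.23 (SD, n = 3) in CTRL Spc, 3.56 ± 0.33 in cKO Spc, 2.62 ± 0.18 in CTRL RS and 1.40 ± 0.056 in cKO RS. It was 4.71 ± 0.28 (SD, n = 4) in CTRL CB and 3.44 ± 0.84 (SD, n = 3) in cKO CB. Of the cKO CB libraries, library 2 was at 4.41, next to the lowest control at 4.45, and libraries 3 and 4, those with the raised macrophage and Leydig sums, were at 3.01 and 2.90. As a share of the pair, Psma8 made up 92.8% to 94.5% in CTRL Spc and 90.2% to 93.5% in cKO Spc, 84.6% to 87.5% in CTRL RS and 72.1% to 73.4% in cKO RS. In RS the ratio was lower in cKO by 1.22 on the log2 scale, with no overlap, and the exact permutation test gave p = 0.1, the smallest that 3 against 3 libraries allow (0.131 adjusted over 17 tests of 4 gene pairs). The 17 include tests of Psmb8 to Psmb5 and Psmb9 to Psmb6, whose outcomes are not read. The adjusted values rest in part on them. The difference in CB was -1.27 (exact permutation p = 0.0571, the smallest for 3 against 4, and 0.131 adjusted) and in Spc -0.28 with overlap (exact permutation p = 0.4). From Spc to RS the ratio fell by 1.23 in CTRL and by 2.16 in cKO (exact permutation p = 0.1 and 0.131 adjusted for each). The most counted Psma7 transcript carries a retained intron. With the length of the protein-coding one the log2 ratios were lower (1.89 in CTRL RS and 0.67 in cKO RS), and so are the shares of Psma8. The differences in log2 ratio were the same. No match of at least 75 bases at 95% identity or more was found between Psma7 and Psma8 transcripts. Reads shared through shorter or weaker matches were not checked.

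**Figure D4:**
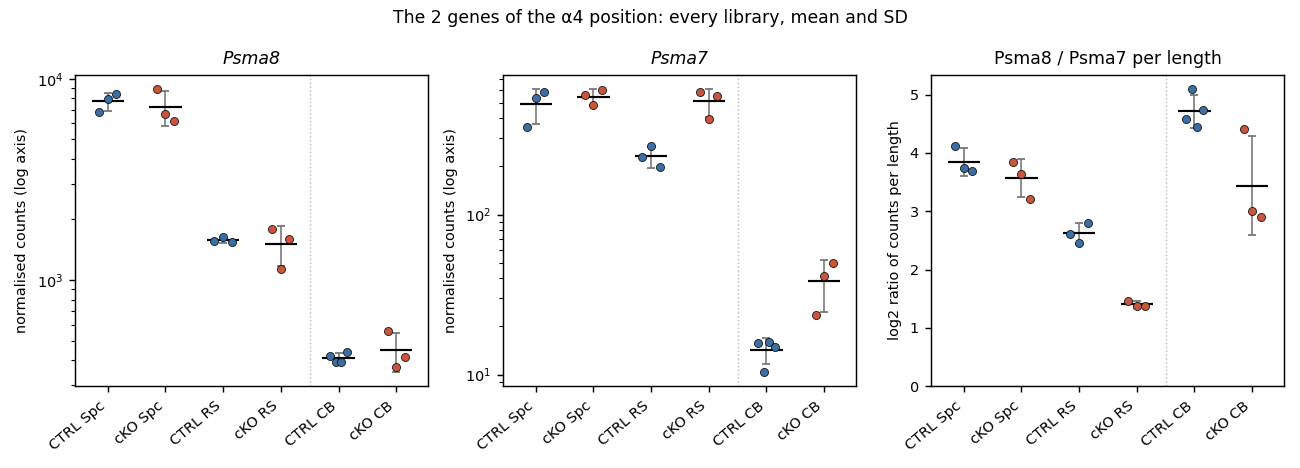
Normalised counts (y axis, log scale) of Psma8 and of Psma7, and the log2 ratio of their counts per length, in each library of CTRL (blue) and Smg6-cKO (red) Spc, RS and CB, with mean bars and SD whiskers. The Psma8 panel overlaps between genotypes, whereas the ratio falls from 2.62 in CTRL RS to 1.40 in cKO RS.

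Ranked per kilobase of coding transcript among the 49 members, Psma8 was 9th in CTRL Spc and 33rd in CTRL RS, and Psma7 was 39th and 40th. In CTRL RS the highest levels per kilobase were those of Psma6 (29885 normalised counts per kilobase), Psmc3 (26472) and Psmf1 (21410). In cKO RS they were those of Psmc3 (16508), Psmd8 (8081) and Psmb6 (6719), so Psma6 and Psmf1 had left the top.

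The immune β subunits and the PA28α and PA28β activator genes Psme1 and Psme2, which are expressed in immune cells and induced by interferon, went the other way and rose in the mutant. Psmb8 (β5i, chromosome 17, 17:34197721-34201454) was at 5.02, 2.41 and 4.41 normalised counts in CTRL Spc, 29.4, 13.2 and 26.4 in cKO Spc, 6.43, 4.17 and 8.51 in CTRL RS and 81.8, 36.8 and 178.1 in cKO RS. Every mutant library was above every control of its cell type, at low levels, on 3 to 6 counts per CTRL library and 14 to 210 per cKO library. Psmb8 and Psmb9 reached the minimum of 10 counts through the cKO libraries alone in both cell types, so among genes that reached it they had to be higher in cKO. Without that minimum Psmb8 was 2.42 higher in Spc (edgeR adjusted p = 0.0142) and 3.96 in RS (edgeR adjusted p = 0.000587). Psmb9 (β1i) was at 2.57, 1.39 and 9.92 in CTRL RS and 44.5, 19.8 and 66.1 in cKO RS, on 1 to 7 counts per CTRL library. Without the minimum it was 3.24 higher in RS (edgeR adjusted p = 0.00295) and 1.54 in Spc (edgeR adjusted p = 0.0296), there on 5 to 9 counts per CTRL library, and with the minimum it did not pass in Spc without CTRL replicate 3 (1.33, edgeR adjusted p = 0.0716). Its exons overlap those of Tap1 on the other strand, and the counting used strand. Psmb10 (β2i) was at 42.4, 41.7 and 39.7 in CTRL RS and 123.5, 70.8 and 131.4 in cKO RS (1.41 ± 0.30, edgeR adjusted p = 0.00332), and did not pass in Spc (0.28, edgeR adjusted p = 0.408).

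Psme1 was at 84.8, 79.1 and 62.4 in CTRL RS and 322.5, 183.1 and 379.1 in cKO RS (1.98 ± 0.30, edgeR adjusted p = 0.000551). In Spc it rose by 1.06 ± 0.32 (edgeR adjusted p = 0.0446), and not without any 1 of the CTRL replicates or cKO replicate 1 or 3 (edgeR adjusted p = 0.0802 to 0.116). Psme2 was at 109.3, 98.6 and 97.8 in CTRL RS and 332.5, 207.6 and 362.9 in cKO RS (1.57 ± 0.25, edgeR adjusted p = 0.000611). It did not pass in Spc (0.43, edgeR adjusted p = 0.34). In CB it passed with overlap between the groups (1.42 ± 0.52, edgeR adjusted p = 0.0456), and not without CTRL CB library 1, 3 or 5 or cKO CB library 3 or 4 (edgeR adjusted p = 0.0756 to 0.177). In CTRL, Psme1 and Psme2 fell from Spc to RS, by 1.30 and 1.09 on the log2 scale.

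Of the ratios of immune to constitutive subunits per length, that of Psmb10 to Psmb7 was -7.14 ± 0.057 (log2, SD, n = 3) in CTRL RS and -5.25 ± 0.43 in cKO RS, with no overlap (exact permutation p = 0.1, the smallest possible, and 0.131 adjusted). The ratio of Psmb8 to Psmb5 was -8.94 ± 0.58 and -5.09 ± 1.09 and that of Psmb9 to Psmb6 -13.10 ± 1.44 and -8.96 ± 0.84. Their tests, counted in the adjustment above, are not read because Psmb8 and Psmb9 reached the count minimum through cKO libraries alone. The most counted Psmb9 transcript also carries a retained intron (2884 bases against 1351 for the protein-coding one). With the coding length the level of the Psmb9 to Psmb6 ratio would be higher in both groups. In RS the constitutive transcript was the more abundant in every library. In CB the immune subunits had too few counts for such a ratio to be read.

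Markers of immune cells moved with these genes. The sum of 12 macrophage markers was 1485.5 to 2335 normalised counts in CTRL RS and 10959.6 to 17901 in cKO RS, and 1662 to 1952.5 in CTRL Spc and 2442 to 3655 in cKO Spc. All 12 rose in cKO RS and 10 rose and 1 fell in cKO Spc, and none of the defining markers was at 0. Csf1r, the receptor that defines macrophages, rose by 3.39 ± 0.26 in RS (edgeR adjusted p = 1.09e-05). Within the cKO RS group the library with the lowest marker sum, replicate 2, was the lowest for Psmb8, Psmb9, Psmb10, Psme1 and Psme2, and replicate 3 had the highest values of all 5 and of the marker sum. Of 10 tested genes of interferon response and antigen presentation 9 rose and 1 fell in cKO RS, and 4 rose and none fell in cKO Spc. Lymphocyte markers summed to 83.5 to 97.8 in CTRL RS and 329.4 to 1173.6 in cKO RS. The part of these cells in the rise of the immune subunits was not tested.

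**Figure D5:**
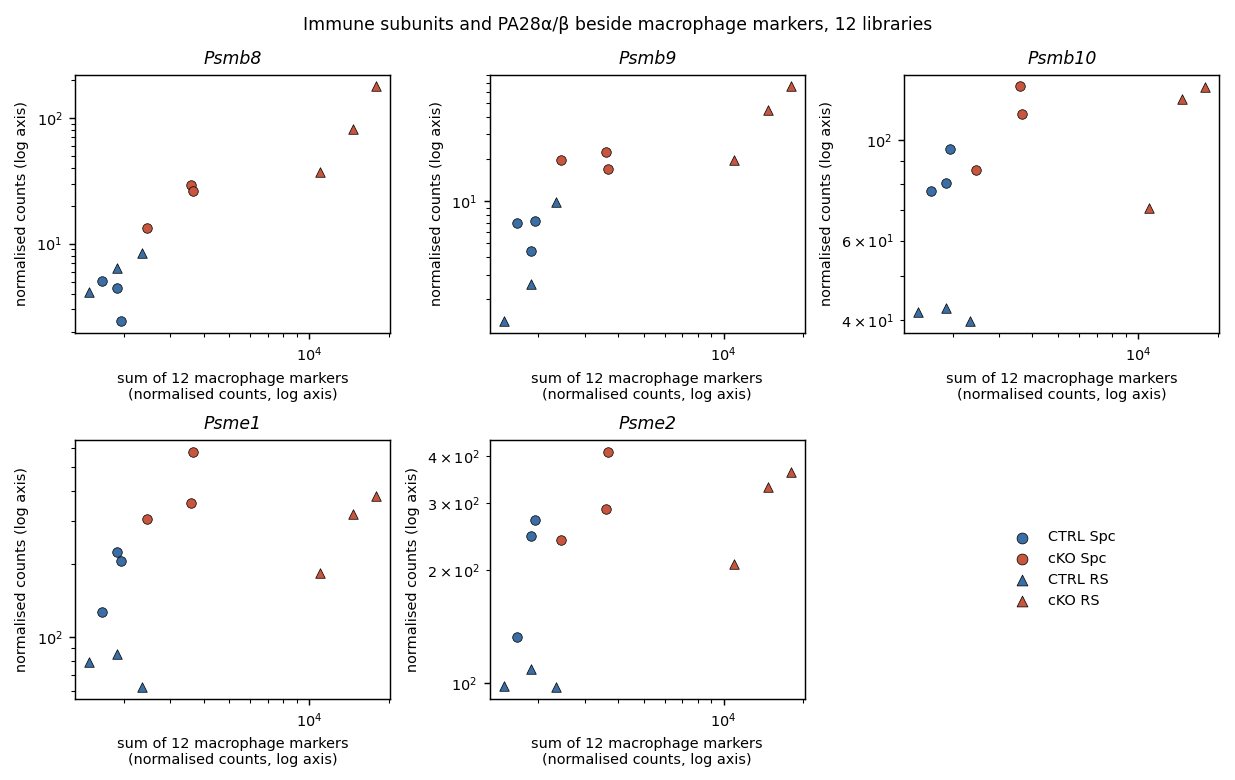
Normalised counts of Psmb8, Psmb9, Psmb10, Psme1 and Psme2 (y axes, log scale) against the summed normalised counts of 12 macrophage markers (x axes, log scale), 1 point per library; circles are Spc, triangles RS, blue CTRL and red Smg6-cKO. The cKO RS libraries lie at marker sums of 10959.6 to 17901, and in all 5 panels they lie above every CTRL RS library.

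Other genes that serve the proteasome were counted from a list of 31 (genes of the ubiquitin pathway such as ubiquitin-activating enzymes, shuttle factors, deubiquitinases, assembly and transcription factors), of which 28 were in the tables. In RS 11 rose and 12 fell, in Spc 3 rose and 4 fell, and in CB 4 of 27 rose and 3 fell. Over all genes 38.4% rose and 34.3% fell in RS, 14.0% and 14.1% in Spc, and 18.1% and 18.4% in CB. The shuttle factor Rad23b fell by 1.19 in RS (edgeR adjusted p = 1.31e-06). On the other side were Ubqln2, a shuttle factor (1.81 ± 0.27, edgeR adjusted p = 0.000516), Nfe2l1, which activates proteasome genes (1.47 ± 0.091, edgeR adjusted p = 3.66e-06), and Pomp, a chaperone of core assembly (1.12 ± 0.12, edgeR adjusted p = 8.45e-05). Nfe2l1 also rose in CB (1.09 ± 0.17, edgeR adjusted p = 0.000505), whereas Ubqln2 fell in Spc (-1.23 ± 0.33, edgeR adjusted p = 0.0313).

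At the level of annotated transcripts, 47 of 198 tested transcripts of members rose and 83 fell in RS, where 38.9% of all transcripts rose and 36% fell. In Spc 18 of 208 rose and 19 fell (16.1% and 12.5% of all), and in CB 11 of 116 rose and 22 fell (17.8% and 18.1% of all). The authors shared each read among the transcripts it overlapped, so transcripts of 1 gene are not independent. The 4 tested transcripts of Psma6 lay between -2.21 and -2.15 in RS and the 6 of Psmf1 between -2.83 and -2.05, whichever biotype they had. Those of Psme3 were farther apart, from -1.68 to -0.44. The counts of Psmb3, Psmb5, Psmc1 and Psmd2 are uncertain because near-identical pseudogenes share their sequence, and those of Psme2 and Psme2b because they share it with each other. Shorter matches of 75 bases to other genes were found for further members. Psma3 matched 13 genes, and Psma4, Psma5 and Psmd11 matched 2 each. Psmb7, Psmb8, Psmb9, Psmc3ip, Psmd1, Psmd13 and Psmg3 matched 1 each. Psmb5, Psmd1, Psme2b and Psmg3 have an exon that overlaps another gene on the same strand.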

How the data were processed

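Per the labels and the study's methods, the authors trimmed reads with cutadapt, aligned them to mouse GRCm38 with STAR and deposited counts per gene and repeat element from TEtranscripts (stranded, UCSC gene symbols), with all groups of a cell type or granule in 1 table. The authors also deposited expected counts per Ensembl transcript from featureCounts, in which a read is shared among the transcripts it overlaps, and these were rounded to whole numbers. Spc and RS libraries were poly(A)-selected and CB libraries were total RNA, and each CB library pooled several mice. The paper's methods and the series text differ on how many testes went into a cell preparation, so p-values measure the spread between these preparations. Repeat element rows were left out of the library sizes, and small RNA and piRNA precursor tables were not used here.

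Genes with at least 10 counts in at least 3 libraries were tested with edgeR 4.0.16 in R 4.3.3 (TMM scaling, glmQLFit and glmQLFTest, two-sided, Benjamini-Hochberg over all genes tested). Genotypes were compared within each table, and RS with Spc, and the interaction, in 1 fit of the 12 libraries. Transcripts needed 20 counts in at least 3 libraries. Normalised counts are counts divided by TMM-scaled library size. Spc and RS share 1 scaling, under which the Spc genotype difference is 0.109 (log2) above that of the Spc fit, and CB has its own. Gene length for the ratios was that of the transcript with the most counts. Ratios were compared by exact permutation over libraries, two-sided.

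Genes with values in the text were Psma7, Psma8, the immune subunits with their constitutive counterparts, Psme1 to Psme4, the rows that are no proteasome gene, and in each comparison up to 3 highest and 3 lowest members that passed with a mean of at least 100 normalised counts. Further genes were named to show counts by role. Some genes of the wider pathway list are counted but not reported here by name. The members and lists were chosen with earlier results of these data known. Near-identical copies were sought with BLAST+ 2.17.0 (at least 95% identity over at least 80% of a transcript), and promoters came from RefSeq, GRCm38.p6. Protein sequences were not used here. Alternatives were DESeq2 1.42.0, library size without TMM, no count filter, summed transcript counts, a replicate block and leaving out libraries. The fit was tested on simulated data.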

Additional observations from a re-analysis of the deposited data

Results flagged for a closer look

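For 17 of the 26 named genes tested, in part named for their large changes, the effect of genotype differed between RS and Spc by the edgeR interaction test, given here as the log2 effect in RS minus that in Spc. Over all genes it was positive for 19% and negative for 24.1%. Among the named genes it was negative for Psmf1 (-1.67), Psma6 (-1.59), Psmg2 (-1.03), Psme3 (-0.92), Psmc2 (-0.90), Psmd10 (-0.76), Psmc3ip (-0.72), Psmb6 (-0.69), Psmd12 (-0.60), Psme4 (-0.56), Psmb7 (-0.46) and Psmb5 (-0.34). A positive value was found for Psmg3 (1.04), Psmb10 (1.01), Psma7 (0.98), Psmd7 (0.47) and Psmd14 (0.40). For Psmb5, Psmb10 and Psmd14 the adjusted p lay between 0.0412 and 0.0466. With library size only, the interactions of Psmb5, Psmb6, Psmb7, Psmd12 and Psme4 turned positive, at 0.37, 0.0237, 0.25, 0.11 and 0.14, and those of Psmc2, Psmc3ip, Psmd10, Psme3 and Psmg2 no longer passed. Without CTRL Spc replicate 2 or 3, cKO Spc replicate 2, CTRL RS replicate 3 or cKO RS replicate 1, the interaction of Psma7 no longer passed (edgeR adjusted p = 0.0524 to 0.0609). The interactions of Psmb5, Psmb10 and Psmd14 were each lost without several single libraries as well.

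Marker lists of other cells were counted in the same interaction test. It was positive for 7 of 12 macrophage, 8 of 12 interferon and antigen presentation, 6 of 6 Sertoli, 4 of 5 erythroid, 1 of 4 tested lymphocyte and 4 of 8 spermatocyte markers, of which 1 more was negative. It was negative for 5 of 9 late spermatid and 5 of 6 spermatid markers, and the 6 Leydig markers, with a median of 2.32, and the 4 tested endothelial markers, with a median of 0.06, did not pass. Their part in these results was not tested.

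Of the named genes with a mean of at least 10 normalised counts in the 4 CTRL CB libraries, the only group large enough for Dixon's test, none had a library apart from the others.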

How the results depend on the processing

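Over the named genes and all alternatives, 1595 values kept direction and side of the threshold, 48 turned direction without passing in either setting, 141 lost the call, 30 gained one and 18 that passed in at least 1 setting reversed, all 18 with library size only. The reversed values were, in RS, Psma8 0.57, Psmb5 0.51, Psmb6 0.0540, Psmb7 0.0919 and Psmd10 0.37. From Spc to RS in CTRL they were Psmb6 -0.22, Psmb7 -0.45, Psmc3ip -0.46, Psmd12 -0.26, Psmd9 -0.37, Psme3 -0.0584 and Psmg2 -0.17. In the interaction they were Psmb5 0.37, Psmb6 0.0237, Psmb7 0.25, Psmd12 0.11, Psmd9 0.49 and Psme4 0.14. Library size only also moved the counts of members that rose and fell, to 29 and 6 in RS, 5 and 39 from Spc to RS in CTRL, and 27 and 2 in the interaction, and those that rose to 3 in CB and to 7 from Spc to RS in cKO. Of all genes 58.5% then rose and 18.5% fell in RS, and 23.7% and 51.8% from Spc to RS in CTRL. The interaction was positive for 44.5% and negative for 3% of all genes, and 11.3% rose in CB and 28.7% from Spc to RS in cKO. Over all genes the median with this scaling was 0.73 in RS (0.11 with TMM), -0.54 from Spc to RS in CTRL (0.05) and 0.58 in the interaction (-0.13). DESeq2 gave 8 positive interactions in place of 5 (22.8% of all genes in place of 19%).

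Leaving out 1 library gave 1 to 6 members that rose and 0 to 4 that fell in Spc, 2 to 7 that rose in CB, and 2 to 7 positive interactions. Of all genes 6.49% to 13% rose and 4.4% to 12.6% fell in Spc, 12.7% to 17.6% rose in CB, and 14.5% to 21.6% had a positive interaction. For transcripts, leaving out 1 library gave 3 to 10 that rose and 0 to 19 that fell in Spc, and 3 to 17 that rose in CB. Of all transcripts 8.03% to 14.1% rose and 4.34% to 10.6% fell in Spc, and 11.8% to 16.1% rose in CB. Without both cKO replicate 1 and CTRL replicate 3 in Spc, edgeR called 0 that rose and 0 that fell (3 and 8 at an unadjusted p under 0.05, and 7 and 5 by DESeq2 with all libraries), where 0.468% of all genes rose and 0.0296% fell. Without the 2 CTRL CB libraries of another name prefix 2 members rose in CB, where 10% of all genes rose. These 2 settings and the protein-coding length were chosen after seeing the data. Without cKO replicate 3 in Spc, 0 transcripts fell by edgeR (19 at an unadjusted p under 0.05).

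Replicate numbers were not taken to pair the libraries, since not every same-numbered pair correlated above 0.1. Same-numbered CTRL and cKO libraries correlated at 0.17, -0.10 and 0.27 in Spc and at -0.12, -0.15 and 0.11 in RS, and same-numbered Spc and RS libraries at -0.16, -0.14 and -0.16 in CTRL and at -0.00774, 0.546 and 0.294 in cKO. With the replicate block, 4 rose and 4 fell in Spc, 12 and 21 in RS, 12 and 21 from Spc to RS in CTRL, 3 and 30 in cKO, and 4 and 20 in the interaction (of all genes 10.2% and 11.5%, 36.0% and 33.1%, 37.2% and 33.6%, 24.2% and 25.9%, and 17.6% and 23.4%), and 11 transcripts rose in Spc. For CB, no paired analysis was possible because the columns' numbers, as a set, are not those of the labels, so that columns could be matched to groups only. Low counts limit the immune subunits and, in RS and CB, Psmg3.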
